A study of Mus musculus with 11 samples.

Results

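The 39 genes described here encode the machinery of mitochondrial and peroxisomal fatty acid oxidation: the carnitine shuttle, the enzymes of beta-oxidation in both organelles, the electron transfer flavoproteins, 3 acyl-CoA thioesterases, the receptor Ppara and 4 proteins of peroxisomal import and transport. They were listed by gene symbol, although with earlier results of these data known, and all 39 were found among the 15453 genes of the tables. Expression was measured in epididymal white adipose tissue (eWAT) of 11 C57BL/6J mice (C57BL/6 in the labels) by serial analysis of gene expression (SAGE), which reads a short tag near the 3′ end of each polyadenylated transcript. There were 6 wildtype (WT) mice and 5 mice that inherited an inactivated Mest allele from their father (pKO). Mest, mesoderm specific transcript, is an imprinted gene of the alpha/beta-hydrolase fold family that is expressed from the paternal copy. Both genotypes were male, 16 weeks old, and had eaten a high fat diet from week 8 to week 16, so no mouse on a standard diet was compared. The inactive allele lacks exon 3, which was removed in the germ line with Ella-cre, so the deletion was present in all tissues and not in adipocytes alone, and the maternal allele of the pKO mice was intact. WT and pKO mice were littermates from WT mothers and fathers that carried the inactive allele silently on their maternal chromosome. Fat mass after the diet differed between the genotypes of the cohort from which the mice were taken. The study also reported a higher ratio of fat to lean mass in the sequenced WT mice than in the sequenced pKO mice. Genotype and adiposity therefore cannot be told apart in these libraries.

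Long-chain fatty acids enter mitochondria as carnitine esters and are then shortened by repeated cycles of dehydrogenation, hydration, a further dehydrogenation and thiolytic cleavage, each cycle releasing acetyl-CoA. Peroxisomes run a parallel cycle on very long, branched and dicarboxylic chains, in which the opening step is an oxidase that makes hydrogen peroxide rather than a dehydrogenase that feeds the respiratory chain. White adipocytes mainly store and release fatty acids and oxidize a small part of them, and many of these genes are known targets of the PPAR family of nuclear receptors.

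SAGE counts a gene through the sequence that follows the last CATG, the cutting site of the enzyme NlaIII, in its transcript. The tags of 8 of the genes on which the results turn are shown because they decide whether close relatives are counted apart, with the CATG site in capitals, each as the 25 bases that start at that site in the reference transcript of the GENCODE M21 annotation of GRCm38. How many of these bases were read is not stated in the sources used here.
Acot2: CATGaattaagggggaaccttaagt
Acot1: CATGcttgatgccctataacacaag
Acaa1a: CATGggacaccctggttgcaaagcc
Acaa1b: CATGaatggtggatgtgatgggcac
Cpt2: CATGtagctggaaggtaccatcttg
Scp2: CATGgataccattaataaaaataac
Acox3: CATGtgggggcctatgggtagaggc
Acot13: CATGtcacctgctaagataggagaa

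The neighbouring paralogs Acot1 (chr12:84009490-84018371) and Acot2 (chr12:83987861-83993873) have tags that are equal at 9 of 25 positions, and the peroxisomal thiolases Acaa1a (chr9:119339676-119350299) and Acaa1b (chr9:119148023-119157093) have tags equal at 7 of 25, so each pair can be counted apart. A tag was found for all 39 genes. It lay in the 3′ UTR for 33 of them and in the coding sequence for 6. For 36 of the 39, no transcript of another annotated gene had the same 25 bases at its last CATG. Other CATG sites of those transcripts were not searched. The tag of Scp2 (chr4:108043839-108144998) is also that of its pseudogene Scp2-ps2, that of Cpt1b is shared with the gene model Gm44502, and that of Decr2 with Bptf, Gm33432 and Gm45416, so the values of these 3 genes are uncertain as to their source. For 11 genes, among them Acox3 (chr5:35583040-35615352) with 4, different annotated transcripts end in different tags, and how these were combined is not stated in the sources used here.

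The libraries held 9659740 to 14825727 tags in WT mice and 11320342 to 14626803 in pKO mice, with medians of 12592059 and 12621798. Values below are normalized tags, the tag counts after the library's size factor was divided out, which made 1 tag worth 0.836 to 1.19. The values of Mest lay between 20756 and 27897 in WT mice and between 793 and 2275 in those with the paternal knockout, a log2 difference of -3.99 (standard error 0.22, limma adjusted p = 1.18e-06), so the labels held in every library. The adipocyte markers defined the tissue, since all 10 were found and Fabp4 alone had a mean of 655817 in WT mice. Of the markers of other cells, 3 of 11 macrophage genes (Itgam, Itgax and Cd14) were called lower in pKO mice. Of the mesothelial genes, 3 of 7 (Msln, Krt19 and Upk1b) were called higher. A call required an unadjusted limma p of at most 0.05 with a mean of 50 or more in a genotype. Among all genes with such a mean, 5.77% were called lower and 4.85% higher. With each mouse left out in turn, Itgam, Krt19 and Upk1b were called in 11 of 11 fits, Itgax in 9, Cd14 in 6 and Msln in 2, the log2 difference of Msln falling from 0.57 to 0.33 without pKO mouse 1. The adipocyte lipase Pnpla2, 1 of 8 endothelial markers (Kdr) and 1 of 8 fibroblast markers (Dcn) were also higher, at log2 differences of 0.55, 0.44 and 0.37 (limma adjusted p = 0.37, 0.44 and 0.43). The summed macrophage markers ran from 6393 to 10111 in WT and from 6238 to 8744 in pKO mice, and the summed mesothelial markers from 1179 to 1614 and from 1426 to 2881. Alb rose from 310 ± 148 (SD, n = 6) to 941 ± 408 (SD, n = 5) at the unadjusted threshold (limma adjusted p = 0.19), while Fga and Fgb, also defining genes of hepatocytes, were under 10 in every mouse. The hepatocyte gene Serpina1a, at 11.7 ± 1.85 in WT (SD, n = 6) and 7.36 ± 3.09 in pKO (SD, n = 5), passed the p alone and was lower. None of the 8 muscle markers found and none of the 10 lymphocyte markers was called, although the muscle gene Myh2, at 8.33 ± 1.55 in WT (SD, n = 6) and 2.29 ± 1.35 in pKO (SD, n = 5), and Pvalb and the lymphocyte gene Lck passed the p alone and were lower, with means under 50. Ucp1 was listed but not found among the 15453 genes, and none of the 6 brown or beige adipocyte markers found was called. Cidea was under 10 in every mouse. Elovl3, at 18.4 ± 8.35 in WT (SD, n = 6) and 9.41 ± 7.88 in pKO (SD, n = 5), passed the p alone and was lower. The WT and pKO means were 42.7 and 43.8 for Ppargc1a and 79.5 and 82.4 for Cox7a1. The part of these cell types in the results below was not tested, and in whole tissue fewer cells of a type and less RNA per cell cannot be told apart.

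Because SAGE yields a tag per transcript, its counts are not scaled by transcript length, and levels of different genes are compared here as tags. The share of all tags that came from the 39 genes was 0.553% ± 0.024 (SD, n = 6) for WT mice and 0.589% ± 0.045 (SD, n = 5) for pKO mice, and the ranges overlapped. Scp2, which encodes both a peroxisomal thiolase and a lipid carrier, gave 21.5% of all normalized tags of the group. How its tags divide between the thiolase and the carrier was not tested. The mitochondrial thiolase Acaa2 gave 9.46%. Next in order were the peroxisomal transporter Abcd2, the dienoyl-CoA reductase Decr1 and the medium-chain dehydrogenase Acadm. The WT range of Scp2 lay above those of all other genes of the group, while each neighbour in the order from Acaa2 to Acadm overlapped the next. At the bottom, the muscle isoform of carnitine palmitoyltransferase 1, Cpt1b, and the cytosolic thioesterase Acot1 stayed under 6 normalized tags in every mouse.

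**Figure D1:**
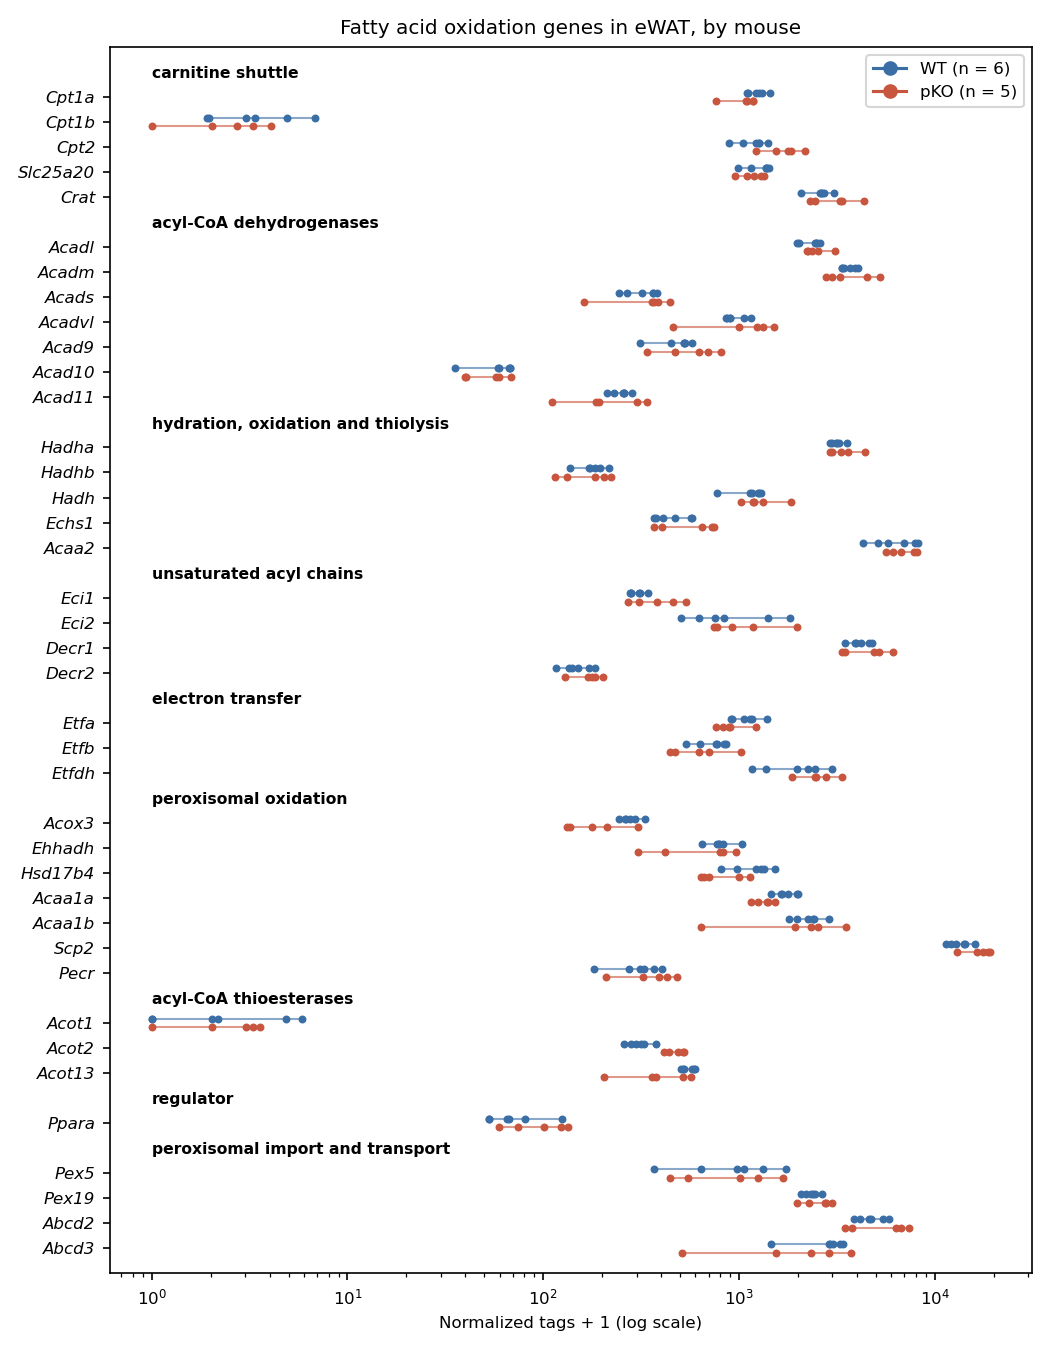
Normalized tags plus 1 (log axis) of the 39 fatty acid oxidation genes in eWAT, grouped by role, with a point for each of the 6 WT (blue) and 5 pKO mice (red) and a line over each group's range. Levels span from under 6 for Cpt1b and Acot1 to 19199 for Scp2, and Acot2 is the 1 gene of the 37 above the minimum mean of 50 whose WT and pKO ranges are apart.

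In the limma fit over all genes, none of the 39 passed an adjusted p of 0.1 together with a mean of 50 or more in a genotype, where 0.0324% of the 15453 genes did. edgeR also placed 0 of them past that threshold and DESeq2 placed 1, Acot2. At an unadjusted p of at most 0.05, the looser threshold, 7 were called in limma, against 6.81% of all genes. The minimum mean of 50 was reached by 37 of the 39, and 10.6% of the genes that reached it were called, so 7 of 37 is read against a background of that size and nothing particular to fatty acid oxidation is drawn from it. Acot2, Cpt2 and Scp2 were higher in pKO mice and Acox3, Hsd17b4, Acaa1a and Acot13 were lower, where 3.11% of all genes (4.85% of those reaching the minimum mean) were called higher and 3.7% (5.77%) lower. The 7 genes had limma adjusted p-values between 0.19 and 0.48 and exact permutation p-values between 0.0043 and 0.043, the smallest value possible with 6 mice against 5 being 0.00216. The differences of the 39 genes, pKO minus WT on the log2(value + 1) scale, were positive for 23 and negative for 16. Their median was 0.093 against -0.0025 over all genes. Over the 9906 genes reaching the minimum mean, 5080 differences were positive and 4826 negative, with a median of 0.0086. WT and pKO ranges did not overlap for 1 of the 37 genes, Acot2, while 1.43% of the genes reaching the minimum mean had ranges apart and 0.717% had every pKO mouse above every WT mouse.

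**Figure D2:**
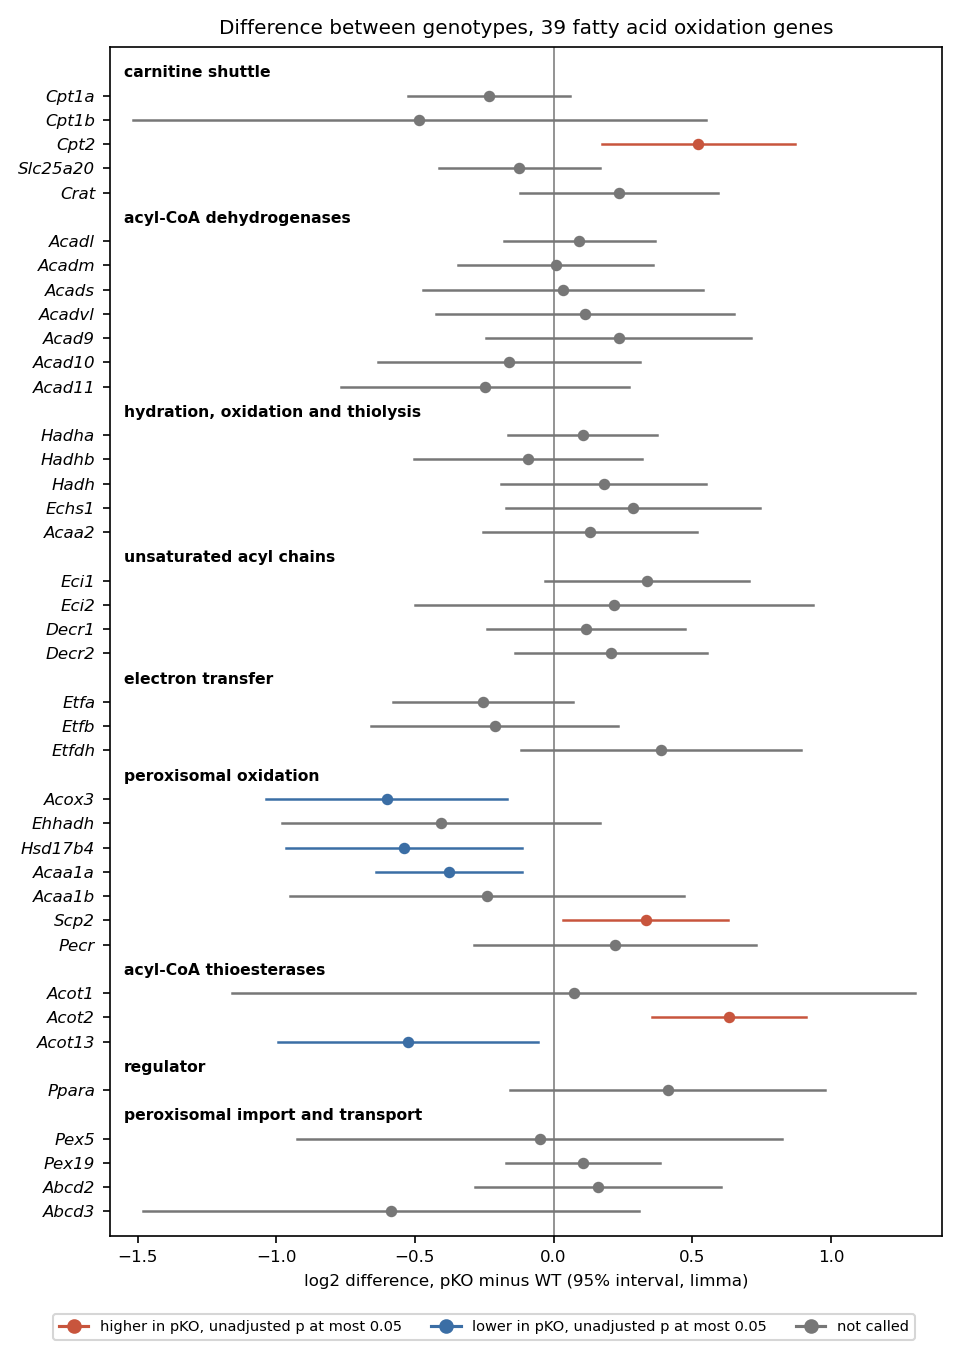
Log2 differences between genotypes (pKO minus WT, from log2(value + 1)) of the 39 genes by role, with their 95% intervals from limma. Red marks the 3 genes called higher and blue the 4 called lower at the unadjusted threshold, and 3 of the 4 blue points lie in the peroxisomal oxidation group.

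The carnitine shuttle carries long-chain acyl groups across the inner mitochondrial membrane, and of its 5 genes Cpt2 was called higher in pKO mice and none was called lower. Cpt1a encodes the liver-type carnitine palmitoyltransferase 1, the rate-limiting step that makes acylcarnitine at the outer membrane. Its lowest, median and highest WT values were 1099.9, 1242 and 1442 normalized tags, and its pKO values were 767, 1084, 1174, 1101 and 1183. The WT mice lay somewhat higher, but 4 of the 5 pKO values fell close to the lower end of the WT range and pKO mouse 1 lay well below. The log2 difference was -0.23 (standard error 0.14, 95% interval -0.53 to 0.06), not past the threshold (limma adjusted p = 0.61, exact permutation p = 0.065). Without pKO mouse 1 it was -0.12.

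Cpt2, carnitine palmitoyltransferase 2 (chr4:107903981-107923610), turns acylcarnitine back into acyl-CoA inside the mitochondrion. It had 887, 1247 and 1409 normalized tags as the lowest, median and highest WT values, and 1781, 1229, 2186, 1540.1 and 1835 in the 5 pKO mice. Of the pKO mice 4 lay above every WT mouse, and pKO mouse 2 fell in the middle of the WT range. The means were 1185 ± 187 (SD, n = 6) and 1714 ± 356 (SD, n = 5), a log2 difference of 0.52 (standard error 0.16, limma adjusted p = 0.37, exact permutation p = 0.017). The call at the unadjusted threshold was kept with each of the 11 mice left out in turn, at 0.43 to 0.64.

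Slc25a20, the carnitine-acylcarnitine carrier of the inner membrane, had 992, 1371 and 1427 normalized tags as its lowest, median and highest WT values and 954, 1301, 1336, 1099 and 1189 in pKO mice. The ranges coincided almost entirely, and the log2 difference of -0.12 had a 95% interval of -0.41 to 0.17 (limma adjusted p = 0.80). Crat, carnitine acetyltransferase, which buffers short-chain acyl-CoA, had a WT mean of 2616 ± 313 (SD, n = 6) and a pKO mean of 3143 ± 824 (SD, n = 5) and was not called. Cpt1b was near the detection limit at 0.91, 2.21 and 5.85 (lowest, median and highest) in WT and 1.72, 2.29, 3.05, 0 and 1.02 in pKO mice. The value of 0 in pKO mouse 4 allows up to 3 tags, or 2.65 normalized tags, from counting error alone, so no difference in Cpt1b was detectable at this depth.

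The acyl-CoA dehydrogenases catalyse the opening step of each mitochondrial cycle, each on its own range of chain lengths, and none of the 7 was called in limma. Their log2 differences ran from -0.25 to 0.23 with a median of 0.033, and their limma adjusted p-values from 0.77 to 0.99. Acadvl, the very long-chain enzyme on the inner membrane, had 858, 902 and 1156 normalized tags as lowest, median and highest WT values and 461, 997, 1515, 1243 and 1329 in pKO mice. The pKO values reached both above and below the WT range, with pKO mouse 1 lowest of all 11 and pKO mice 3, 4 and 5 above every WT mouse. The log2 difference was 0.11 (95% interval -0.42 to 0.65, limma adjusted p = 0.92). Without pKO mouse 1 it rose to 0.40 and passed the unadjusted threshold, and without pKO mouse 3 it was -0.026.

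Acadm, the medium-chain enzyme, had 3355, 3556 and 4069 normalized tags as lowest, median and highest WT values and 2984, 5239.6, 4498, 3293 and 2789.5 in pKO mice. The WT values sat inside a much wider pKO range, with pKO mice 2 and 3 above and pKO mice 1, 4 and 5 below all WT mice. The log2 difference was 0.0080 (95% interval -0.34 to 0.36, limma adjusted p = 0.99), and its sign turned to -0.027 when libraries were scaled by total tags. Of the remaining dehydrogenases, Acadl (long-chain) had means of 2335 in WT and 2495 in pKO mice and Acads (short-chain) of 323 and 344. Acad9, which also assembles respiratory complex I, had means of 487 and 588, Acad10 of 58.4 and 52.1, and the peroxisome-associated Acad11 of 249 and 225. Acad9 was called higher at the unadjusted threshold when pKO mouse 1 was left out, with a log2 difference of 0.42.

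The remaining steps of the mitochondrial cycle are carried out by the trifunctional protein on long chains and by soluble enzymes on shorter ones, and none of the 5 genes was called in limma. Hadha and Hadhb encode the alpha and beta subunits of the trifunctional protein and lie next to each other on opposite strands (chr5:30118304-30155162 and chr5:30155248-30184593). Hadha had 2924, 3149.9 and 3560.3 normalized tags as lowest, median and highest WT values and 3308, 2927, 4398, 3611 and 2977 in pKO mice. Hadhb had 136, 178 and 215 in WT and 131, 204, 183, 114 and 222 in pKO mice. For both subunits the pKO range took in nearly all WT values, and the log2 differences were 0.11 (95% interval -0.16 to 0.37, limma adjusted p = 0.83) and -0.093 (95% interval -0.50 to 0.32, limma adjusted p = 0.92). Hadha tags outnumbered Hadhb tags by 16.4 to 23.4 times in WT and by 13.4 to 31.7 times in pKO mice, although the subunits act in a common complex. This ratio compares the levels of tags from 2 different cutting sites. Without pKO mouse 3 the log2 difference in Hadha fell to 0.013, and without pKO mouse 4 that in Hadhb was 0.041. Echs1, the short-chain enoyl-CoA hydratase, had means of 462 in WT and 578 in pKO mice, Hadh, the short-chain hydroxyacyl-CoA dehydrogenase, of 1149 and 1312, and Acaa2 of 6394 and 6893.

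Unsaturated chains need auxiliary enzymes that move or reduce their double bonds before the cycle can go on. All 4 of these genes had a positive log2 difference (higher in pKO mice), as did 5080 of the 9906 genes reaching the minimum mean. The log2 differences of the 4 genes were 0.12 to 0.34 with a median of 0.21, yet none passed the threshold in limma. The mitochondrial isomerase Eci1 came nearest, at 277, 295 and 343 normalized tags as lowest, median and highest WT values and 379, 535, 462, 309 and 270.2 in pKO mice. In pKO mice 1, 2 and 3 Eci1 lay above every WT mouse, and in pKO mouse 5 it lay below every WT mouse. Its log2 difference of 0.34 (standard error 0.17) had a limma adjusted p of 0.55 and an exact permutation p of 0.087, and it was called at the unadjusted threshold by edgeR and DESeq2. Eci2 varied over a wide range in both genotypes, from 507 to 1831 in WT and from 745 to 1981 in pKO mice. The 2,4-dienoyl-CoA reductases of mitochondria and peroxisomes, Decr1 and Decr2, had means of 4163 and 148 in WT and 4612 and 171 in pKO mice.

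Electrons from the acyl-CoA dehydrogenases pass through the flavoprotein formed by Etfa and Etfb to Etfdh, which hands them to ubiquinone. Etfa and Etfb had lower means in pKO mice, at 1096 against 921 and 731 against 653, and Etfdh had a higher one, at 2038 against 2579.8. None of the 3 was called in limma, and their adjusted p-values were 0.62 to 0.78. Etfdh was called higher at the unadjusted threshold without WT mouse 4, with a log2 difference of 0.51. Without pKO mouse 2, whose values of 1227 for Etfa and 1023 for Etfb were the highest among pKO mice, both flavoprotein subunits were called lower at the unadjusted threshold, with log2 differences of -0.36 and -0.39.

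Of the 7 genes of peroxisomal oxidation, 3 were called lower in pKO mice (Acox3, Hsd17b4 and Acaa1a) and 1 higher (Scp2), where 5.77% of genes reaching the minimum mean were called lower and 4.85% higher. The median log2 difference was -0.38 against -0.0025 over all genes, and whether these genes differ from the rest was not tested. Acox3, the acyl-CoA oxidase for branched chains, had 242, 270.1 and 332 normalized tags as lowest, median and highest WT values and 304, 211, 176, 136 and 131 in pKO mice. In pKO mice 2, 3, 4 and 5 it lay below every WT mouse, and pKO mouse 1 lay inside the WT range. The means were 279 ± 31.5 (SD, n = 6) and 192 ± 70.7 (SD, n = 5), a log2 difference of -0.60 (standard error 0.20, limma adjusted p = 0.39, exact permutation p = 0.026). It was called whichever mouse was left out, at -0.79 to -0.48.

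The middle steps of the peroxisomal cycle are done by bifunctional enzymes. Hsd17b4, the D-bifunctional protein (chr18:50128201-50196269), acts on very long and branched chains and had 807, 1260.5 and 1523 normalized tags as lowest, median and highest WT values and 664, 995, 1145, 699 and 635 in pKO mice. In 3 of the pKO mice it lay below every WT mouse, and in the other two inside the WT range. The means were 1195 ± 259 (SD, n = 6) and 828 ± 228 (SD, n = 5), a log2 difference of -0.54 (standard error 0.20, limma adjusted p = 0.43, exact permutation p = 0.043), called whichever mouse was left out.

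Ehhadh, the L-bifunctional protein, which takes dicarboxylic chains and is a classical PPAR alpha target in liver, had 648, 791 and 1037 in WT and 304, 963, 827, 801 and 419.6 in pKO mice. Here pKO mice 1 and 5 lay far below all others, and pKO mice 2, 3 and 4 lay within the WT range. The log2 difference of -0.41 (95% interval -0.98 to 0.17) was not called (limma adjusted p = 0.65). It was -0.16 without pKO mouse 1, and without pKO mouse 2 it was -0.57 and past the unadjusted threshold.

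The closing cleavage is made by the thiolases. Acaa1a had 1452, 1720.0 and 2003 normalized tags as lowest, median and highest WT values and 1152, 1413, 1258, 1386 and 1522 in pKO mice. Only pKO mouse 5 reached into the WT range, and there it exceeded the lowest WT mouse alone. The means were 1753 ± 215 (SD, n = 6) and 1346 ± 143 (SD, n = 5), a log2 difference of -0.38 (standard error 0.12, limma adjusted p = 0.37, exact permutation p = 0.0065), called whichever mouse was left out.

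Its paralog Acaa1b, told apart by the tag printed above, had 1795, 2324 and 2869.7 in WT and 2339, 3508, 2521, 1925 and 643 in pKO mice. The pKO mice reached beyond the WT range at both ends, with pKO mouse 5 lowest and pKO mouse 2 highest of all 11. The log2 difference of -0.24 had a 95% interval of -0.95 to 0.47 (limma adjusted p = 0.86) and turned to 0.15 without pKO mouse 5. A difference between the paralogs in their response was not tested.

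Scp2 had 11473, 13472 and 16080.1 normalized tags as lowest, median and highest WT values and 13038, 16484, 18749.8, 19199 and 17611 in pKO mice. In pKO mice 2 to 5 it exceeded every WT mouse, while pKO mouse 1 lay in the middle of the WT range. The means were 13480.2 ± 1679 (SD, n = 6) and 17017 ± 2461 (SD, n = 5), a log2 difference of 0.33 (standard error 0.14, limma adjusted p = 0.48, exact permutation p = 0.030). The call was kept in 5 of the 11 fits without a mouse. It was lost without WT mouse 1, 2 or 3 or pKO mouse 3, 4 or 5, at log2 differences of 0.29, 0.32, 0.30, 0.29, 0.29 and 0.32, and with scaling by total tags, at 0.30. Pecr, the peroxisomal trans-2-enoyl-CoA reductase, had means of 311 and 366 and was not called.

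**Figure D3:**
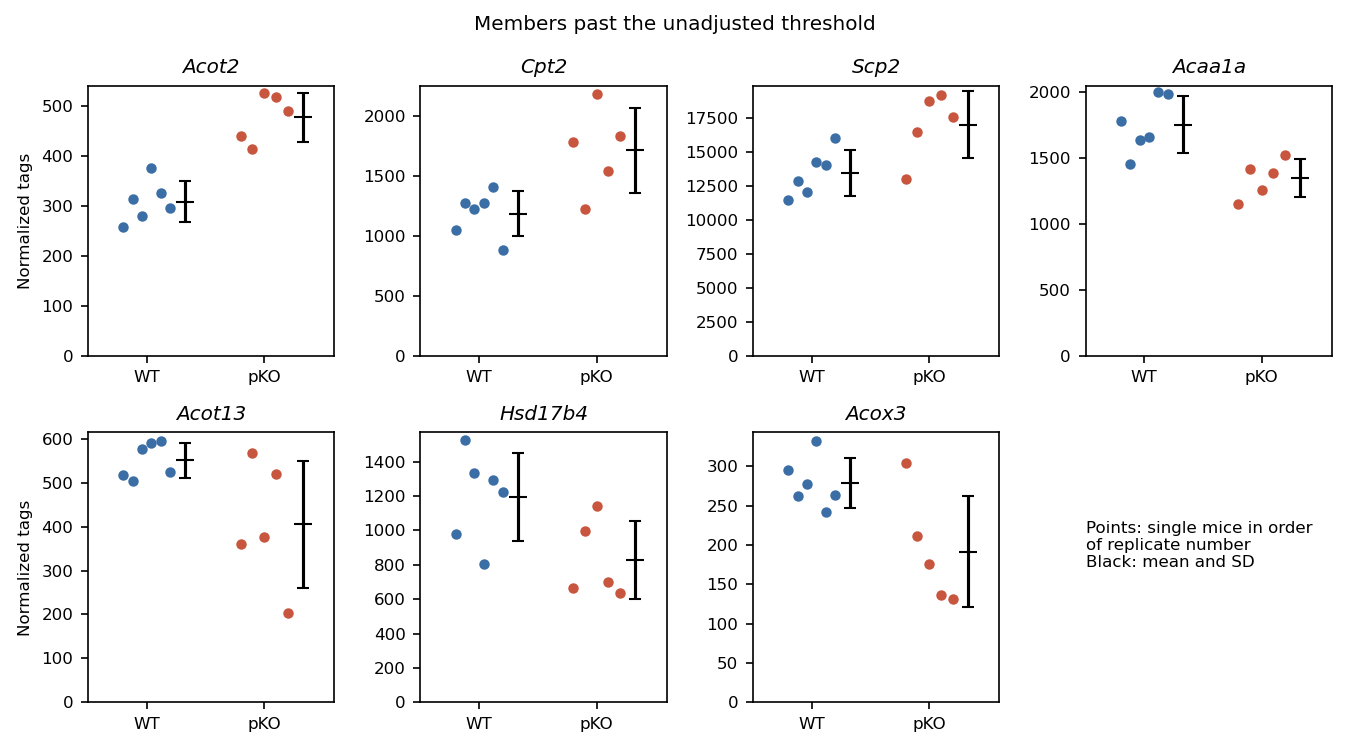
Normalized tags (linear axes from 0) of the 7 genes called at the unadjusted threshold, with a point for each mouse in order of its replicate number and the mean and SD in black. The values of Acot2 do not overlap between genotypes, at 257 to 376 in WT and 413 to 525 in pKO mice, and the ranges of the other 6 genes overlap.

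Acyl-CoA thioesterases release free fatty acids from acyl-CoA, and the 3 genes of this kind differed from each other. Acot2, the mitochondrial long-chain thioesterase, had 257, 305 and 376 normalized tags as lowest, median and highest WT values and 439.5, 413, 525, 517 and 490.2 in pKO mice. Every pKO mouse lay above every WT mouse. The means were 308 ± 41.3 (SD, n = 6) and 477 ± 49.1 (SD, n = 5), 1.55 times higher in pKO mice and a log2 difference of 0.63 (standard error 0.13, 95% interval 0.35 to 0.91, limma adjusted p = 0.19, exact permutation p = 0.0043). The values rested on 249 to 586 tags per library. With a mouse left out in turn the log2 difference stayed between 0.58 and 0.69, and its lowest limma adjusted p, without pKO mouse 2, was 0.073. The adjusted p was 0.20 with edgeR and 0.0016 with DESeq2.

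The cytosolic paralog Acot1 lies in the same cluster on chromosome 12 and had 0, 1.10 and 4.86 normalized tags as lowest, median and highest WT values and 2.58, 2.29, 2.04, 0 and 1.02 in pKO mice. At this level, no more than 5 tags in any library, no difference was detectable. Acot13 (chr13:24817948-24831540), a small thioesterase of the hotdog fold associated with mitochondria, had 503, 549.8 and 594 in WT and 361, 568, 375, 519.8 and 203 in pKO mice. In pKO mice 1, 3 and 5 it lay below every WT mouse, and in pKO mice 2 and 4 within the narrow WT range. The means were 551 ± 40.3 (SD, n = 6) and 405 ± 145 (SD, n = 5), a log2 difference of -0.52 (standard error 0.22, limma adjusted p = 0.48, exact permutation p = 0.028). The call was lost without WT mouse 3, 4 or 5 or pKO mouse 1 or 3, at log2 differences of -0.51, -0.50, -0.50, -0.50 and -0.52, and without pKO mouse 5, at -0.30, and it was kept without each of the other 5 mice.

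Ppara encodes the receptor PPAR alpha, which drives many of these genes in liver, and was among the least abundant of the group in eWAT. It had 51.8, 65.1 and 124 normalized tags as lowest, median and highest WT values and 99.6, 73.3, 132, 58.3 and 122 in pKO mice. The ranges overlapped over most of their width, and the log2 difference of 0.41 (95% interval -0.16 to 0.98) was not called (limma adjusted p = 0.64). It passed the unadjusted threshold without WT mouse 5, at 0.57, and without pKO mouse 4, at 0.58.

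Import and transport into peroxisomes depend on the receptor Pex5, the membrane protein chaperone Pex19 and the fatty acyl-CoA transporters Abcd2 and Abcd3, and none of the 4 genes was called in limma. Abcd2, an adipose-enriched transporter of very long chains, had means of 4786 in WT and 5549 in pKO mice, and Pex19 of 2355 and 2555. Abcd3, also known as PMP70, ranged from 1449 to 3405 in WT and from 509.6 to 3733 in pKO mice, where pKO mouse 5 was lowest, and its log2 difference of -0.59 fell to -0.13 without that mouse. Pex5 varied from 366 to 1733 in WT and from 443 to 1687 in pKO mice.

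**Figure D4:**
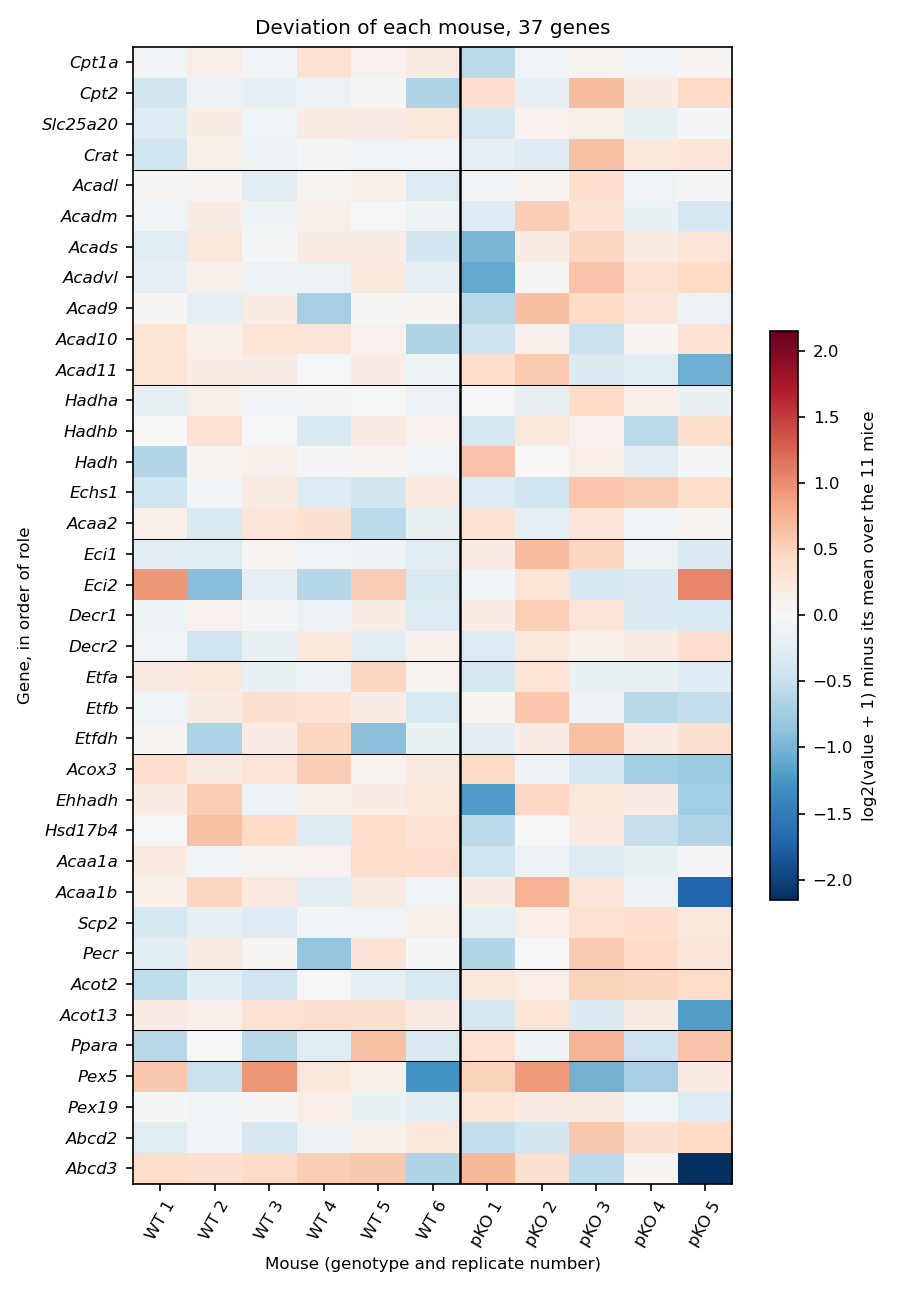
Each mouse's deviation from the mean over the 11 mice, in log2(value + 1) units, for the 37 genes above the minimum mean of 50, in order of role (horizontal lines) with WT mice left and pKO mice right of the vertical line. The darkest blue cells are Abcd3 and Acaa1b in pKO mouse 5, and the next include Pex5 in WT mouse 6, Ehhadh in pKO mouse 1 and Acot13 in pKO mouse 5.

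The spread between mice was wider in pKO mice. For the 37 genes above the minimum mean the median coefficient of variation was 15.7% in WT and 27.6% in pKO mice, and it was larger in pKO mice for 29 of the 37. Over the 9906 genes of the whole table above that mean it was 15.5% and 23.2%, and 73.5% of these had the larger value in pKO mice, so a wider spread in pKO mice was general. Of the pKO mice, mouse 3 had the highest value for 14 of the 37 genes and mouse 2 for 11, while mouse 1 had the lowest for 13 and mouse 5 for 10. In pKO mouse 5 the low genes included Abcd3 at 509.6, Acaa1b at 643 and Acot13 at 203, whereas Eci2, at 1981, was the highest of any mouse. In pKO mouse 1 they included Acadvl at 461, Ehhadh at 304 and Acads at 161, whereas Hadh, at 1837, was the highest of any mouse.

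The wider pathway was followed through 110 further genes, of which 99 were found. At the unadjusted threshold limma called 9 of them higher in pKO mice and 4 lower. The background given above was 3.11% and 3.7% of all genes, or 4.85% and 5.77% of those reaching the minimum mean. Among those called higher, Echdc3, an enoyl-CoA hydratase-like protein, had values of 214 to 611 in WT and 648 to 847 in pKO mice, without overlap. Its log2 difference was 0.77 (standard error 0.23, limma adjusted p = 0.37). Phyh, the peroxisomal hydroxylase that starts alpha-oxidation of phytanic acid, ranged from 2008 to 2699 in WT and from 2849 to 4617 in pKO mice, also without overlap, with a log2 difference of 0.51 (limma adjusted p = 0.34, exact permutation p = 0.0022, the smallest possible). Ephx2, the soluble epoxide hydrolase of cytosol and peroxisomes, had 257, 195, 241, 322, 219 and 230.3 in WT and 730, 568, 497, 267 and 299 in pKO mice, a log2 difference of 0.86 (limma adjusted p = 0.36). Its ranges overlapped, with pKO mice 4 and 5 inside the WT range.

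The other genes called higher were Pex16, which places membrane proteins into peroxisomes (191 ± 38.3 in WT and 279 ± 48.5 in pKO mice), Nrip1, a corepressor of oxidative genes also called RIP140 (533 ± 93.4 and 743 ± 115), the branched-chain dehydrogenase Acadsb (275 ± 58.1 and 368 ± 59.3), and the propionyl-CoA pathway enzymes Mcee, Mut and Pcca, with Mcee at 476 ± 65.6 and 668 ± 204 and Mut at 2173 ± 436 and 2776 ± 401 (SD, n = 6 and n = 5 throughout). Those called lower included Nudt19, a peroxisomal CoA hydrolase (1185 ± 174 in WT and 843 ± 312 in pKO mice), Gnpat, which begins ether lipid synthesis in peroxisomes (1362 ± 94.7 and 966 ± 409), and Nrf1, a transcription factor of nuclear genes for the respiratory chain (128 ± 15.9 and 103 ± 9.06). The limma adjusted p-values of these genes were 0.37 to 0.52. In pKO mouse 5 Nudt19 was at 354 and Gnpat at 405, the lowest of any mouse, and without it their log2 differences fell from -0.58 to -0.30 and from -0.62 to -0.34 and were no longer called. Echdc3, Phyh, Ephx2, Pex16, Nrip1 and Acadsb were called whichever mouse was left out, whereas Gnpat was called in 7 of these 11 fits, Nudt19, Mcee and Mut in 5 each, Pcca in 4 and Nrf1 in 3. Without WT mouse 1 the log2 difference of Mut fell from 0.37 to 0.24. The peroxisomal genes outside the 39 included 3 called higher and 2 called lower of 30 found. Among all genes reaching the minimum mean, 4.85% were called higher and 5.77% lower, 10.6% in either direction. Of the 14 genes of fatty acid activation, 7 of carnitine supply and 12 known PPAR targets found, limma called none, the means of Pdk4 being 619 ± 131 (SD, n = 6) for WT and 651 ± 102 (SD, n = 5) for pKO mice.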

How the data were processed

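RNA of eWAT from 6 WT and 5 pKO mice was turned into SAGE libraries with NlaIII, and the tags were sequenced on a SOLiD instrument and aligned by the authors with a modified SOLiD SAGE analysis program. The submitters' processing notes list mm10 and edgeR 3.2.3, the program the study used to compare samples in pairs. Which annotation was used, and how the 15453 genes were selected, is not given in the sources used here. The deposited values are a signal per gene and mouse: the authors normalized tag counts by each library's size factor. Every value (100%) was a whole multiple of the library's smallest step within 0.001 tag, so counts were recovered, with totals of 9659740 to 14825727 tags. Replicates within a genotype differed beyond sampling noise (the smallest chi-square per degree of freedom was 18.96). Floors on counts cover counting error only, since PCR copies cannot be recognized. The intervals of the log2 differences come from limma and rest on the spread between mice.

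Log2(value + 1) was compared between genotypes over all 15453 genes with limma 3.58.1 (trend, two-sided, Benjamini-Hochberg adjustment). Fold changes on this scale understate the change of genes with few tags. Calls required an adjusted p no larger than 0.1, or an unadjusted p no larger than 0.05, and a mean of 50 or more in a genotype. These are the study's thresholds, applied with limma, whereas the study ran its counts through DESeq and took significance from SAM (Significance Analysis of Microarrays). Exact permutation tests (two-sided) took all 462 splits of the mice. P-values weigh the difference between genotypes against the spread between mice. Recovered counts were also tested with edgeR 4.0.16, whose quasi-likelihood test called 1 gene higher and 4 lower at the adjusted threshold, and with DESeq2 1.42.0. Other alternatives changed the scaling, the pseudocount, the filter on low tags, the limma trend and the replicate block, or left out a mouse. The limma and edgeR fits were also run on simulated counts. These had the same spread for all genes and both genotypes, unlike the data, so nothing about the calls is drawn from them. Tags were read from GENCODE M21 transcripts.

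The genes and lists were chosen with earlier results of these data known. Values by mouse are given for each of the 39 genes called at the unadjusted threshold and, whatever their values, for Cpt1a, Cpt1b, Cpt2, Slc25a20, Acadvl, Acadm, Hadha, Hadhb, Ehhadh, Acaa1b, Acot1 and Ppara. Eci1, Pdk4 and the low or high values of single mice in other genes were singled out after their values were seen. Of the other pathway genes called, the 12 with the smallest p were to be given with values, and a result among them is not reported here.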

Additional observations from a re-analysis of the deposited data

Results flagged for a closer look

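In each genotype the highest and lowest mouse were compared with the rest by Dixon's test at its 95% level. Chance passes this level in about 1 of 20 groups. The test covered the 39 genes, Mest and, of the 13 other pathway genes called, the 12 with the smallest p. Of 104 groups, 7 passed, where 5.2 would be passed by chance. Among pKO mice, mouse 1 was low in Cpt1a, at 767 normalized tags against 1084 to 1183 in the others, and mouse 2 was high in Etfa, at 1227 against 766 to 895. Among WT mice, mouse 1 was low in Hadh, at 775 against 1141 to 1297, and in Mut, at 1335 against 2136 to 2472. WT mouse 6 was low in Acad10, at 34.4 against 57.9 to 66.9, and in Abcd3, at 1449 against 2882 to 3405. WT mouse 5 was high in Acadsb, at 385 against 213 to 271.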

How the results depend on the processing

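Counts of fatty acid oxidation genes called at the unadjusted threshold stayed near 3 higher and 4 lower. They were 2 and 4 with scaling by total tags, 4 and 3 with edgeR (Eci1 added, Acot13 lost) and 4 and 4 with DESeq2. Leaving out a mouse gave 2 to 5 higher, the 5 without pKO mouse 1, and 3 to 7 lower, the 7 without pKO mouse 2. Over all genes at the adjusted threshold, 1 higher and 4 lower became 2 and 9 with at least 10 tags in every library, 58 and 63 with DESeq2, and 1 to 26 and 2 to 65 with a mouse left out. The 26 and 65 were counted without pKO mouse 2 and 4 and 8 without WT mouse 5, 2 genes were higher without pKO mouse 3, and 2 were lower without each of WT mice 1, 2, 3, 4 and 6 and pKO mouse 1. Scaling by total tags moved the calls over all genes at the unadjusted threshold from 480 higher and 572 lower to 330 and 726. Mice with the same replicate number did not deviate together (correlations of -0.093 to 0.14), so the numbers do not pair them. In a fit with the replicate block, from which WT mouse 6 drops out, 0 genes were higher and 1 was lower over all genes, and 3 and 4 of the 39 genes. The difference in Acadm reversed to -0.027 with scaling by total tags and to -0.015 with the block, and that in Acot1, which was 0.072, to -0.017 with a pseudocount of 10, -0.19 with edgeR and -0.20 with DESeq2. With a mouse left out the differences ran from -0.12 to 0.10 for Acadm, -0.16 to 0.38 for Acot1, -0.026 to 0.40 for Acadvl, -0.20 to 0.041 for Hadhb and -0.46 to 0.15 for Acaa1b, so their direction rested on single mice. Over the 31 genes followed, 537 of 618 values kept their direction and their side of the threshold, 59 fell below it, 4 rose past it and 18 reversed. The cause of these shifts was not tested. Genes near the floor of 3 tags per library, Cpt1b and Acot1, are limited by depth.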
